A study of Homo sapiens with 9 samples.

Results

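Annexins and S100 proteins are calcium-responsive proteins that meet at membranes. Annexins bind acidic phospholipids when calcium rises and act in membrane organisation, repair, endocytosis and secretion. S100 proteins are small dimers with paired EF hands, the loops that bind calcium, and several of them join annexins into complexes that tether membranes or link them to the actin cytoskeleton. Most S100A genes lie side by side on chromosome 1 near genes of the epidermal barrier.

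The genes described here are all those measured by a probe set with a single gene symbol that is a numbered annexin, a numbered S100A gene, S100B, S100G, S100P or S100Z. They numbered 30 of 18417 genes, 11 annexins and 19 S100 genes, each with 1 probe set. Pseudogenes, the annexin A2 receptor gene ANXA2R and ANXA8, whose probe sets also list ANXA8L1, were not among them.

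Expression was measured in H9-TCF7L1 cells, a derivative of the established human embryonic stem cell line H9 with a transgene for TCF7L1 that doxycycline (Dox) induces. TCF7L1 is a DNA-binding factor that mostly represses targets of Wnt signalling. The 3 groups of 3 arrays were untreated cells in the pluripotency medium mTeSR1, cells after 48 h in a medium that drives primitive streak-like differentiation (PS medium), and cells after 48 h in that medium with 48 h of Dox at 1 ug/ml. All groups carried the transgene, no group had Dox without PS medium, and no group had Dox without the transgene, so effects of Dox itself and of induced TCF7L1 cannot be told apart. The submitters' aim was a search for putative targets of TCF7L1 through its over-expression. Whether the replicates were separate cultures is not in the labels, so the p-values cover the spread among these arrays only, and that spread may be technical. In bulk RNA, fewer cells of a type and less RNA per cell cannot be told apart.

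Markers of the labelled cells were present. The sum of 10 pluripotency marker intensities was 40140 to 42131 on untreated arrays, 26305 to 29662 on PS arrays and 35197 to 37143 on Dox arrays. The sum of 8 primitive streak and mesendoderm markers was 1524 to 1648, 92129 to 104428 and 22642 to 31918 in the same order. Its largest part in PS medium was EOMES, with group means of 212, 54452 and 12187, while TBXT had 170, 579 and 337. TCF7L1 intensity was 3718, 3878 and 3572 on untreated arrays, 1275, 1542 and 1611 on PS arrays, and 13100, 12433 and 2699 on Dox arrays. Dox replicate 3 stood apart from the other Dox arrays, above every PS array and below every untreated one. TCF7L1 was higher with Dox than in PS medium (log2 2.39, limma adjusted p = 0.00464), but Dox against untreated cells was no call (1.04, adjusted p = 0.124) unless Dox replicate 3 was left out (1.78, 4.9e-07). In PS medium TCF7L1 was 2.55-fold below untreated cells, which just missed the threshold (adjusted p = 0.0502) and passed without any 1 of the Dox arrays (1.02e-06 to 0.0397). Counts of called genes with Dox are therefore also given without that array, which for the markers and the wider list was chosen after the data were seen.

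Intensities below are the deposited values on a linear scale, in order of replicate 1, 2 and 3. Differences are means of quantile-normalized log2(intensity + 16) with a standard error (SE, n = 3 per group) from limma, and a gene rose or fell where the p-value adjusted over 18417 genes was under 0.05. Annexins are taken first, since most of the genes that moved were annexins.

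**Figure D1:**
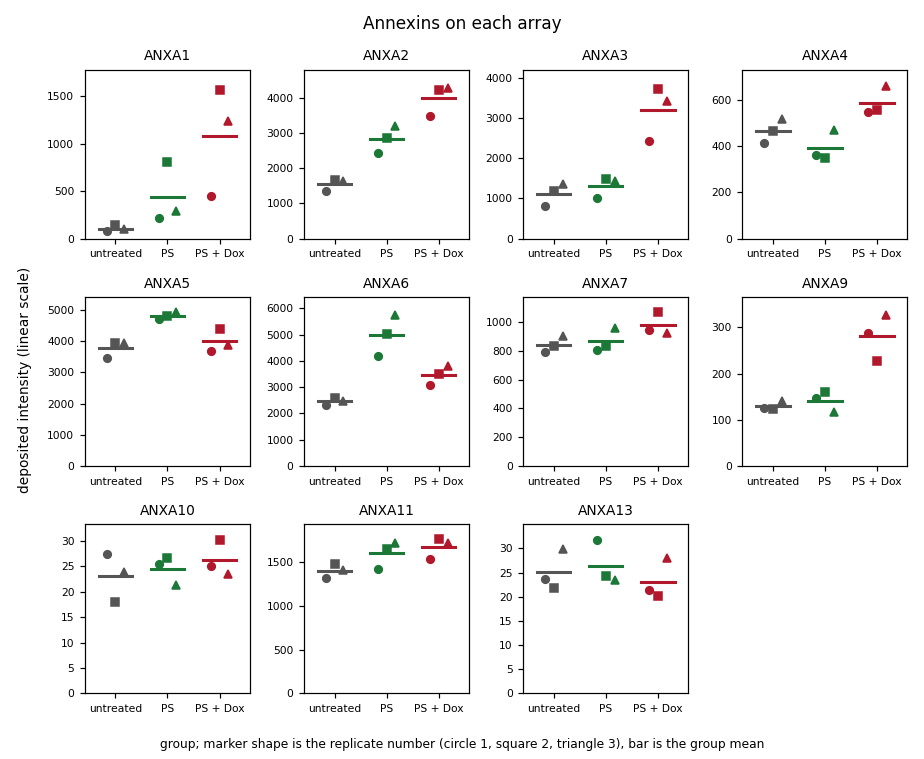
Deposited intensity (linear scale, y axis from 0) of the 11 annexins on each of the 9 arrays, by group on the x axis, with bars at group means and marker shape for the replicate number. ANXA2, ANXA3, ANXA4 and ANXA9 were higher on every Dox array than on every PS array, ANXA5 and ANXA6 were lower, and ANXA10 and ANXA13 stayed at 31.7 or below.

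The first comparison sets cells after 48 h in PS medium without Dox against untreated cells in mTeSR1. These PS arrays are a group parallel to the Dox arrays, not an earlier stage of them. Of the 30 genes, 5 rose and 2 fell, or 23.3%, against 29.8% of all genes tested (14.2% higher and 15.7% lower), so the family as a whole was called no more often than other genes. Of the 11 annexins, 4 rose (ANXA1, ANXA2, ANXA5 and ANXA6) and limma called 0 falls, also 0 at an unadjusted p under 0.05. Their median log2 difference was 0.15, against -0.0055 over all genes. Of the 19 S100 genes, S100A11 rose and S100A4 and S100A16 fell, with a median of 0.027.

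PS medium with Dox against PS medium alone shows the response to Dox in that medium, where Dox itself and induced TCF7L1 cannot be told apart. Of the 30 genes, 4 rose and 3 fell, again 23.3%, against 17.3% of all genes (8.91% higher and 8.44% lower). Annexins made up 6 of these 7 calls: ANXA2, ANXA3, ANXA4 and ANXA9 rose, and ANXA5 and ANXA6 fell. Of the 19 S100 genes only S100A11 passed, with a fall, and limma called 0 rises, also 0 at an unadjusted p under 0.05. Without Dox replicate 3, 4 rose and 2 fell, the lost call being ANXA5. Over all genes, leaving out any 1 array lowered the calls from 3195 to between 2404 and 3074. On Dox replicate 3 TCF7L1 read 2699, the lowest of the Dox arrays. Of the 4 genes that rose, ANXA2 (4277), ANXA4 (658) and ANXA9 (327) read highest of the Dox arrays there, and ANXA3 (3425) did not. Whether annexin levels follow the TCF7L1 level was not tested. Without Dox replicate 1, PS replicate 1 or PS replicate 3 the falls dropped from 3 to 1.

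PS medium with Dox against untreated cells shares its arrays with both comparisons above and is set beside them as a description of where each gene ended. There 6 of the 30 genes rose and 2 fell, or 26.7%, against 30.3% of all genes (15.3% higher and 14.9% lower). The 6 were ANXA1, ANXA2, ANXA3, ANXA6, ANXA9 and S100A11, and the 2 were S100A4 and S100A16. Without Dox replicate 3 the counts were also 6 and 2.

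**Figure D2:**
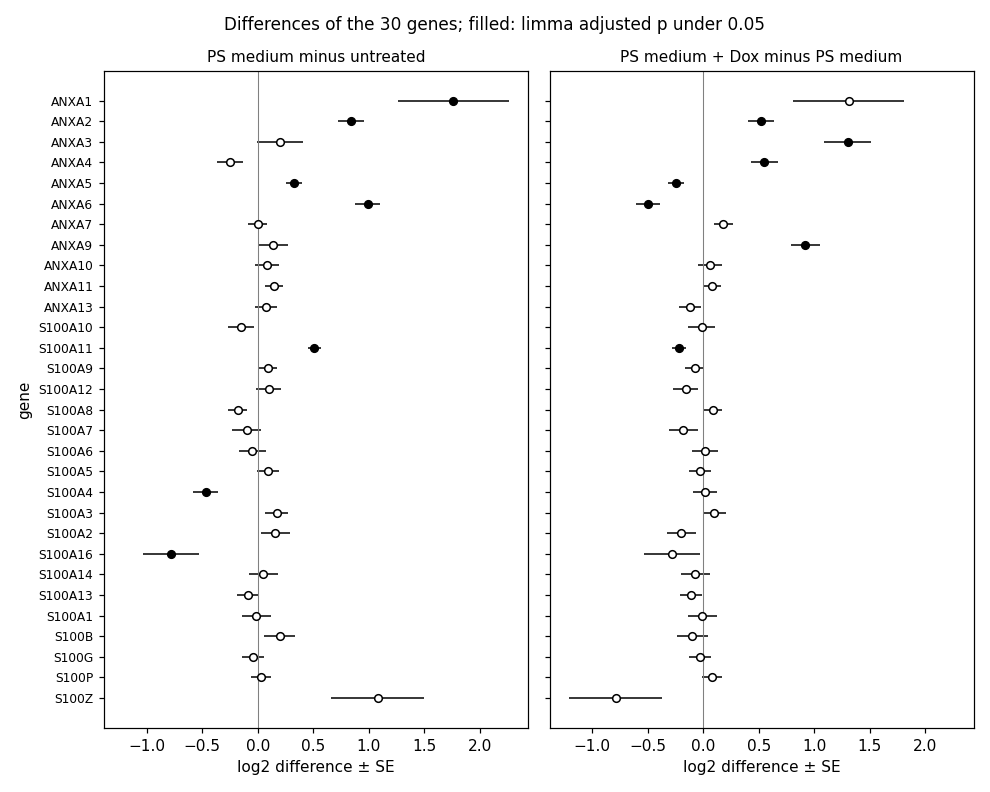
Log2 difference (x axis, with SE bars) of each of the 30 genes (y axis), PS medium minus untreated on the left and PS medium with Dox minus PS medium on the right. Filled points passed at an adjusted p under 0.05. In the right panel 6 of the 7 filled points are annexins.

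ANXA1, an annexin induced by glucocorticoids that restrains inflammation, had the largest log2 difference of the family from untreated cells, in PS medium and with Dox. Its intensities were 75.5, 140 and 96.7 on untreated arrays, 221, 809 and 291 on PS arrays and 448, 1565 and 1235 on Dox arrays. Every PS array lay above every untreated array, PS and Dox arrays overlapped, and replicate 2 was the highest array of each group. ANXA1 rose 3.39-fold in PS medium (log2 1.76 ± 0.50, limma adjusted p = 0.0223). It no longer passed when untreated replicate 1 (adjusted p = 0.0874) or 3 (0.0636) or PS replicate 2 (1.22, 0.0665) was left out. With Dox the mean was 2.49 times that in PS medium, which missed the threshold (1.31 ± 0.50, adjusted p = 0.108). It passed with the replicate number as a block (adjusted p = 0.00315) and without PS replicate 2 (1.85, 0.0177) or Dox replicate 1 (1.85, 0.0246). Against untreated cells ANXA1 with Dox was 8.43-fold higher (3.07 ± 0.50, adjusted p = 0.000951), and its arrays did not overlap.

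ANXA2 forms a tetramer with S100A10 that binds membranes, actin and plasminogen activators. Its intensities were 1343, 1658 and 1628 on untreated arrays, 2426, 2853 and 3187 on PS arrays and 3479, 4218 and 4277 on Dox arrays. No 2 groups overlapped, and the order was untreated, PS medium, PS medium with Dox. ANXA2 rose 1.79-fold in PS medium (0.84 ± 0.12, limma adjusted p = 0.000283) and a further 1.43-fold with Dox (0.52 ± 0.12, adjusted p = 0.00958). ANXA2 has near-identical processed pseudogenes, and array probes may not separate them. The probe set of ANXA2P2 read 1408, 1598 and 1511, then 2374, 2829 and 3090, then 3009, 3770 and 4078 in the same order of groups, so the ANXA2 values are uncertain in this respect.

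ANXA3, an annexin of secretory granules and of several epithelia, moved with Dox. Its intensities were 814, 1184 and 1358 on untreated arrays, 1014, 1477 and 1442 on PS arrays and 2436, 3732 and 3425 on Dox arrays. Untreated and PS arrays overlapped, and every Dox array lay above all of them. The rise with Dox over PS medium was 2.46-fold (1.30 ± 0.21, limma adjusted p = 0.0013), while PS medium differed from untreated cells by 0.20 ± 0.21 (adjusted p = 0.527).

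ANXA9, an annexin that lacks the usual calcium-binding residues and is found in epithelia, showed the same order of groups at lower intensity. It read 125, 124 and 140 on untreated arrays, 146, 159 and 117 on PS arrays and 288, 228 and 327 on Dox arrays. The Dox arrays stood clear of both other groups, which overlapped. ANXA9 rose 1.89-fold with Dox (0.92 ± 0.13, limma adjusted p = 0.000634) and differed by 0.14 ± 0.13 between PS medium and untreated cells (adjusted p = 0.49).

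ANXA4, an annexin of epithelial membranes, read 415, 464 and 516 on untreated arrays, 359, 350 and 470 on PS arrays and 547, 555 and 658 on Dox arrays. The Dox arrays were the highest, and PS arrays overlapped the untreated ones. With Dox it was 1.47-fold above PS medium (0.55 ± 0.12, limma adjusted p = 0.0106). Against untreated cells the difference of 0.30 ± 0.12 missed the threshold (adjusted p = 0.0989), and passed with the replicate number as a block (adjusted p = 0.00617) and without PS replicate 3 (0.0485). Without PS replicate 3, ANXA4 in PS medium was also below untreated cells (-0.37, adjusted p = 0.0361, against -0.25 ± 0.12 and 0.162 with all arrays).

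ANXA6 and ANXA5 moved the other way with Dox. ANXA6, which carries a doubled set of annexin repeats and acts in endocytosis and cholesterol transport, read 2301, 2584 and 2488 on untreated arrays, 4182, 5023 and 5761 on PS arrays and 3087, 3494 and 3802 on Dox arrays. No 2 groups overlapped, and the Dox arrays lay between the others. It rose 1.99-fold in PS medium (0.99 ± 0.11, limma adjusted p = 6.53e-05) and was 1.42-fold lower with Dox than in PS medium alone (-0.50 ± 0.11, adjusted p = 0.00968). With Dox it remained 1.40-fold above untreated cells (adjusted p = 0.0066).

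ANXA5, the annexin used as a probe of exposed phosphatidylserine, read 3447, 3931 and 3957 on untreated arrays, 4703, 4809 and 4927 on PS arrays and 3695, 4399 and 3891 on Dox arrays. The PS arrays were the highest, and the Dox and untreated arrays overlapped. It rose 1.26-fold in PS medium (0.33 ± 0.07, limma adjusted p = 0.00509) and was 1.19-fold lower with Dox (-0.25 ± 0.07, adjusted p = 0.0375). The latter call was lost without untreated replicate 2 (0.0506), without any 1 of the PS arrays (0.0597 to 0.0991), without Dox replicate 1 (0.142) or 3 (0.096), with median centring (0.0631) and without a variance trend (0.0796).

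The remaining 4 annexins did not pass in any comparison. ANXA11, which has a long disordered tail and tethers RNA granules to lysosomes, read 1319 to 1474 on untreated arrays, 1421 to 1719 on PS arrays and 1536 to 1759 on Dox arrays. Its Dox arrays all lay above the untreated ones (log2 0.23 ± 0.08, limma adjusted p = 0.0532), and that difference passed with the replicate number as a block (adjusted p = 0.00483), as deposited (0.047), without the dimmest 25% of genes (0.0449), with only these 2 groups fitted (0.0352), and without PS replicate 1 (0.0341), PS replicate 3 (0.0407) or Dox replicate 1 (0.0407). ANXA7, an annexin of secretory vesicles, read 796 to 901, 806 to 959 and 922 to 1071 in the same order, with a Dox difference of 0.18 ± 0.08 over PS medium (adjusted p = 0.20). ANXA10 and ANXA13, annexins of the stomach and gut, read 18.0 to 31.7 on all arrays, among the dimmest 25% of genes.

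Promoters of 4 annexins, chosen after their values were seen, are printed because the study asks for TCF7L1 targets: ANXA1, ANXA2 and ANXA3 had their highest group mean with Dox, and ANXA5 had its highest in PS medium. RefSeq windows (GRCh38.p14) from 250 bases before to 50 after the start were available for 28 of the 30 genes, 39 windows in all. They were searched on both strands for CTTTG followed by 2 bases that are each A or T, the core that TCF/LEF factors are known to bind. No match overlapped another in the windows printed. Of all 35116 RefSeq windows, 13.8% held at least 1 match, and of the 39 windows of these genes 3 did (7.69%), those of ANXA1, S100G and S100Z. ANXA1 held 2 matches, which begin at bases 73 and 127 of the window. The 250 bases before the start are given 5′ to 3′ on the gene's strand, with matches in capitals, for ANXA1 at chr9:73151615-73151864 (plus strand), ANXA2 at chr15:60397987-60398236 (minus), ANXA3 at chr4:78551520-78551769 (plus) and ANXA5 at chr4:121696981-121697230 (minus).
ANXA1: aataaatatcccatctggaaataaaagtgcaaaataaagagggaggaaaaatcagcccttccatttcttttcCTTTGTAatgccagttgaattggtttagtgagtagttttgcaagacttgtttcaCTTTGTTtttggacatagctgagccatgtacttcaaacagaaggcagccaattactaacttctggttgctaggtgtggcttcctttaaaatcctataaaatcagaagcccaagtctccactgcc
ANXA2: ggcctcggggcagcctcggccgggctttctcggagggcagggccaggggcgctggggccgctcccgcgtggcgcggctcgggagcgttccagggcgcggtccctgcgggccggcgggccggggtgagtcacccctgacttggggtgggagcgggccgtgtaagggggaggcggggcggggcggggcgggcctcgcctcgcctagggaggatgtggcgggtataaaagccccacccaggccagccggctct
ANXA3: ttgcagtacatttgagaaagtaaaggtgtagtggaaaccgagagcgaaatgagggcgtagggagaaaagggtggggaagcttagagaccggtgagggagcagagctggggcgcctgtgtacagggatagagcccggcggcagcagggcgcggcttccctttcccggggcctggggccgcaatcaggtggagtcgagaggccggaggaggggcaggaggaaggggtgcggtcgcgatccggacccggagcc
ANXA5: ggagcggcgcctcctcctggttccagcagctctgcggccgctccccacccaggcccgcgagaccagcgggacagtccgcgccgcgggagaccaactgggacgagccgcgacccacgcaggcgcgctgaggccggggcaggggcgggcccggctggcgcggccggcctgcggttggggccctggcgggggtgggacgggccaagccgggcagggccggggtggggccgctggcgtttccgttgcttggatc
The windows of ANXA2, ANXA3 and ANXA5 held no match. A match is a string of letters in this window, not a measured binding site.

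Markers of surface ectoderm, amnion and keratinocytes are given beside the annexins because they differed between the same groups. Their summed intensity over 8 measured genes was 4796 to 4998 on untreated arrays, 11996 to 15027 on PS arrays and 25377 to 27908 on Dox arrays, and most of the increase came from TFAP2A, an early ectoderm transcription factor with group means of 202, 8440 and 17114. In PS medium against untreated cells 4 of the 8 rose and 2 fell, GRHL2, an epithelial transcription factor (log2 -0.58), and KRT7, a keratin of simple epithelia (-1.75). With Dox over PS medium limma called 5 of the 8 higher and 0 lower (6 and 1 before adjustment, at p under 0.05), among them GRHL2 (1.55) and KRT7 (1.68), while KRT5, a keratin of stratified epithelia, differed by -0.037. Against untreated cells KRT7 with Dox differed by -0.068 (adjusted p = 0.911). Without Dox replicate 3 the counts with Dox over PS medium were the same, 5 and 0, and KRT7 then stood below untreated cells (-0.59, adjusted p = 0.00969). The part of these markers in the annexin differences was not tested.

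**Figure D3:**
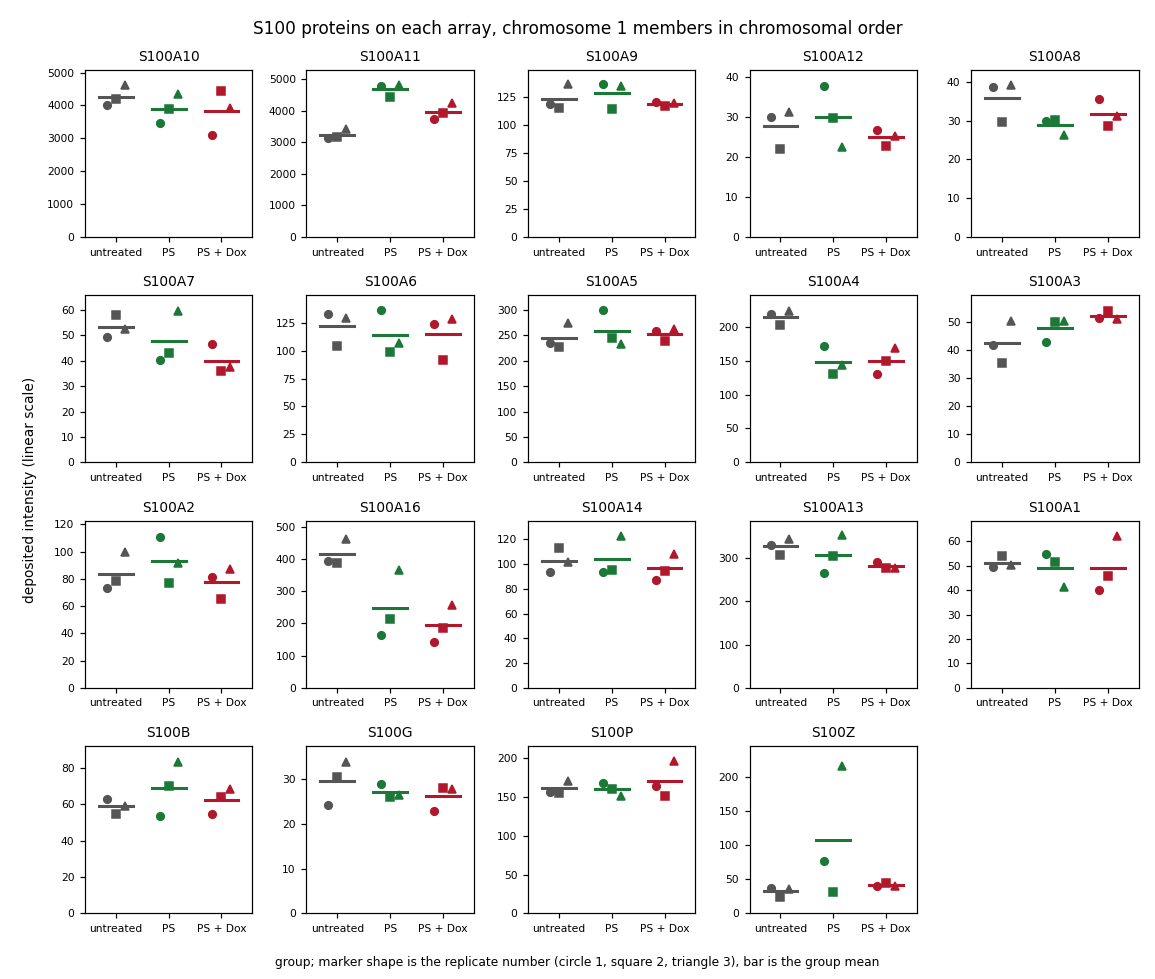
Deposited intensity (linear scale, y axis from 0) of the 19 S100 genes on each of the 9 arrays, by group on the x axis, with bars at group means. The 15 genes of chromosome 1 come first, in chromosomal order. S100A11 was highest in PS medium, S100A4 and S100A16 were highest in untreated cells, and S100Z was high on PS replicates 1 and 3 alone.

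Among S100 genes, S100A11, a partner of ANXA1 in membrane repair and growth control, passed in all 3 comparisons. It read 3140, 3159 and 3433 on untreated arrays, 4798, 4450 and 4812 on PS arrays and 3732, 3918 and 4254 on Dox arrays. No 2 groups overlapped, and the Dox arrays lay between the others, as for ANXA6. S100A11 rose 1.42-fold in PS medium (0.51 ± 0.06, limma adjusted p = 9.84e-05), was 1.16-fold lower with Dox than without (-0.22 ± 0.06, adjusted p = 0.0317), and with Dox was 1.23-fold above untreated cells (adjusted p = 0.0039). The fall with Dox was lost without PS replicate 1 (0.0952) or 3 (0.0925), without Dox replicate 1 (0.121) or 2 (0.09), with only these 2 groups fitted (0.0599) and without a variance trend (0.0811).

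S100A10, the partner of ANXA2, is unusual in the family because its EF hands do not need calcium. It read 4008, 4185 and 4624 on untreated arrays, 3470, 3879 and 4344 on PS arrays and 3111, 4456 and 3926 on Dox arrays. All 3 groups overlapped. The differences were -0.15 ± 0.12 for PS medium against untreated cells (limma adjusted p = 0.43) and -0.015 ± 0.12 with Dox against PS medium (adjusted p = 0.959).

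S100A16 and S100A4 fell in PS medium. S100A16, a widely expressed member, read 394, 386 and 463 on untreated arrays, 165, 215 and 365 on PS arrays and 142, 186 and 257 on Dox arrays. Untreated arrays lay above all others, and replicate 3 was the highest array of each group. It was 1.71-fold lower in PS medium (-0.78 ± 0.25, limma adjusted p = 0.0403) and 2.07-fold lower with Dox than untreated (-1.05 ± 0.25, adjusted p = 0.00931). The first call was lost without any 1 of the untreated arrays (0.0761 to 0.122), PS replicate 1 (-0.53, 0.144) or 2 (0.0953), or Dox replicate 2 (0.052).

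S100A4, which binds non-muscle myosin and is linked to cell motility, read 219, 202 and 223 on untreated arrays, 172, 130 and 144 on PS arrays and 131, 149 and 168 on Dox arrays. Untreated arrays lay above all others, and PS and Dox arrays overlapped. The fall in PS medium was 1.38-fold (-0.47 ± 0.11, limma adjusted p = 0.00736), and Dox against PS medium gave 0.015 ± 0.11 (adjusted p = 0.953). On chromosome 1, S100A3 and S100A2 lie between S100A4 and S100A16, with S100A5 and S100A14 on the outer sides, and none of these 4 neighbours passed in any comparison (PS medium against untreated cells 0.17 ± 0.10, 0.16 ± 0.13, 0.096 ± 0.10 and 0.049 ± 0.13).

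S100Z, a little-studied member outside the chromosome 1 cluster, was uneven. It read 36.3, 24.3 and 35.8 on untreated arrays, 76.1, 30.8 and 216 on PS arrays and 39.8, 43.8 and 40.0 on Dox arrays. PS replicate 2 lay within the untreated range, and PS replicates 1 and 3 lay above every other array. The PS difference was 1.08 ± 0.42 (limma adjusted p = 0.0824). It passed without PS replicate 2 (1.62, adjusted p = 0.00309) and shrank to 0.47 without PS replicate 3 (adjusted p = 0.166). With Dox over PS medium the difference was -0.79 ± 0.42 (adjusted p = 0.267), which became -1.33 (0.0153) without PS replicate 2 and -0.17 (0.686) without PS replicate 3.

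The other 14 S100 genes did not pass in any comparison with all arrays. S100B, a neural and glial member, passed in PS medium without PS replicate 1 (0.36, limma adjusted p = 0.0465, against 0.20 ± 0.14 and 0.316), and S100A3, a member of hair cuticle, passed with Dox against untreated cells without untreated replicate 3 (0.35, 0.0331, against 0.27 ± 0.10 and 0.0689). S100A13, which takes part in the release of FGF1, read 266 to 352 over all arrays, S100A5 226 to 300 and S100P, a partner of ezrin, 151 to 197. S100A8, S100A9 and S100A12, the calgranulins of neutrophils and monocytes, read 26.2 to 39.2, 114 to 137 and 22.0 to 37.9, with limma adjusted p of 0.143, 0.498 and 0.575 for PS medium against untreated cells. Of 8 myeloid markers, 3 were among the dimmest 25% of genes. PTPRC, the CD45 antigen of blood cells, had group means of 23.9, 21.4 and 22.7. CD68, a lysosomal protein of macrophages, had means of 198, 331 and 240, rose in PS medium (0.72, adjusted p = 0.000455) and fell with Dox (-0.43, 0.0162), and ITGAM, an integrin of myeloid cells, fell in PS medium (-0.33, 0.0142). The CD68 fall was no call without Dox replicate 3, when limma called 0 of the 8. ELANE, the neutrophil elastase, had means of 316, 302 and 282 with no call. The 8 markers summed to 1073 to 1190 on untreated arrays, 1149 to 1203 on PS arrays and 983 to 1166 on Dox arrays.

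In all, 13 of the 30 genes were among the dimmest 25% of genes by mean log2 intensity (11 S100 genes and 2 annexins), and 12 of them, without S100Z, read 18.0 to 136 on every array. Of the 13, limma called 0 in any comparison, with 1 rise at an unadjusted p under 0.05 in PS medium against untreated cells and 1 with Dox against untreated cells. Of all genes this dim it called 12.9% in PS medium against untreated cells and 7.21% with Dox against PS medium. Against untreated cells it called 13.4% with Dox. With 13 genes the count of 0 cannot show whether they were called less often than others. S100A6, which is abundant in many adult cell types, was among the 13 at 133, 104 and 129 on untreated arrays, 136, 99.1 and 107 on PS arrays and 124, 91.9 and 128 on Dox arrays. Of the 17 brighter genes 7 passed in PS medium against untreated cells and 7 with Dox against PS medium (41.2% each), beside 35.5% and 20.7% of all 13813 genes above the dimmest 25%.

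Known annexin-S100 partners were then set side by side. For each array the log2 value of the S100 gene was subtracted from that of the annexin, and groups were compared with an exact two-sided permutation test, which with 3 against 3 arrays cannot go below p = 0.1. There were 12 such tests, 4 pairs in 3 comparisons.

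**Figure D4:**
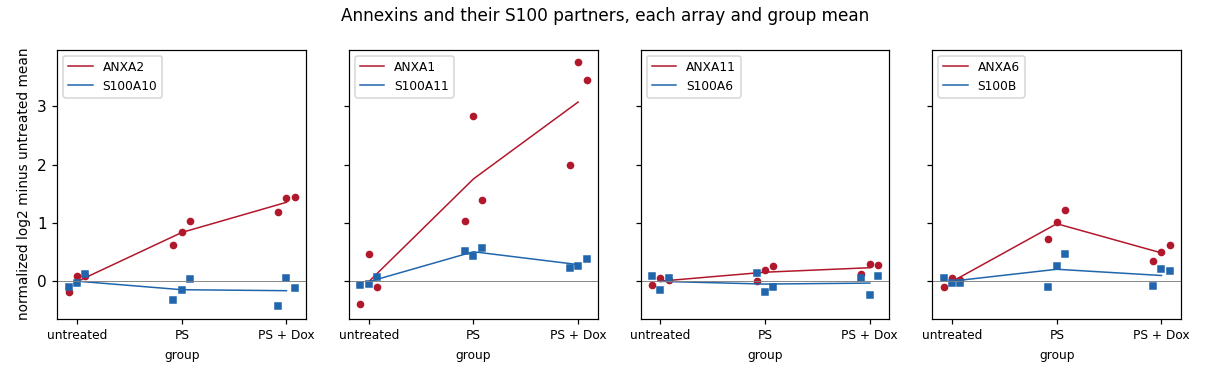
Normalized log2 value minus the gene's untreated mean (y axis) on each array, by group (x axis), for 4 annexins (circles) and their S100 partners (squares), with lines through group means. ANXA2 climbed by 1.36 from untreated cells to PS medium with Dox, and S100A10 stayed within its replicate spread.

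None of the 12 tests passed, which this number of arrays did not allow, so the values are a description. For ANXA2 and S100A10 the difference in change was 0.98 (SD over arrays 0.026 in PS medium and 0.10 in untreated cells) for PS medium against untreated cells and 0.53 with Dox against PS medium (SD 0.13 and 0.026). The per-array values did not overlap in either, with exact p = 0.1 in both (adjusted 0.15 over the 12 tests). ANXA1 and S100A11 differed from untreated cells by 1.76 and 0.51 in PS medium, with no overlap of the per-array values (exact p = 0.1, adjusted 0.15). With Dox against PS medium ANXA1 differed by 1.31 and S100A11 by -0.22, and the per-array values overlapped (exact p = 0.2, adjusted 0.267).

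ANXA6 binds S100B in vitro. The change of ANXA6 exceeded that of S100B by 0.79 in PS medium and fell short of it with Dox (-0.40), with no overlap and exact p = 0.1 in each (adjusted 0.15). ANXA11 and S100A6, first described as a pair from their binding, differed in change by 0.20 (exact p = 0.3, adjusted 0.327) and 0.064 (exact p = 0.8, adjusted 0.8). Both S100B and S100A6 were dim.

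The wider list of receptors, partners and related calcium sensors held 46 genes, 38 of them measured. In PS medium against untreated cells 6 rose and 7 fell, and with Dox against PS medium 3 rose and 3 fell, with medians of -0.0048 and 0.016. Against untreated cells 7 rose and 5 fell with Dox. These were 34.2%, 15.8% and 31.6% of the 38, beside 29.8%, 17.3% and 30.3% of all genes. Without Dox replicate 3 the counts with Dox were 3 and 2 over PS medium and 7 and 6 against untreated cells.

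**Figure D5:**
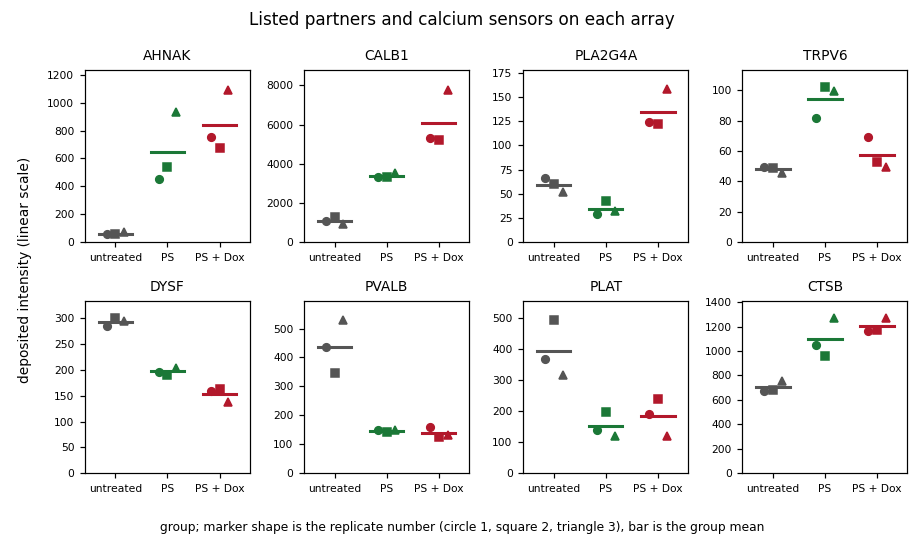
Deposited intensity (linear scale, y axis from 0) of 8 listed genes on each of the 9 arrays, by group on the x axis, with bars at group means. AHNAK and CALB1 were higher in PS medium than in untreated cells, and PLA2G4A was highest with Dox at 122 to 158.

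Scaffolds and binding partners held the largest change. AHNAK, a giant scaffold that the ANXA2-S100A10 complex brings to the plasma membrane, read 56.3, 57.0 and 72.7 on untreated arrays, 454, 541 and 934 on PS arrays and 753, 678 and 1089 on Dox arrays. Every PS and Dox array lay far above the untreated ones, and PS and Dox arrays overlapped. The rise was 8.20-fold in PS medium (3.04 ± 0.24, limma adjusted p = 5.1e-06), and the Dox difference over PS medium was 0.41 ± 0.24 (adjusted p = 0.315). The latter passed with the replicate number as a block (0.0475) and without PS replicate 3 (0.69, 0.0293), and shrank to 0.20 without PS replicate 1 (0.691) or Dox replicate 3 (0.651).

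PLA2G4A, the cytosolic phospholipase A2 that annexins can inhibit, read 65.9, 60.0 and 52.1 on untreated arrays, 29.2, 42.6 and 32.2 on PS arrays and 124, 122 and 158 on Dox arrays. No 2 groups overlapped. It fell in PS medium (-0.54 ± 0.13, limma adjusted p = 0.00833) and rose 2.98-fold with Dox over PS medium (1.58 ± 0.13, adjusted p = 1.76e-05), above untreated cells as well (2.05-fold).

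DYSF, dysferlin, a membrane repair protein that binds ANXA1 and ANXA2, read 284, 300 and 295 on untreated arrays, 196, 191 and 204 on PS arrays and 159, 163 and 138 on Dox arrays. It fell in PS medium (-0.51 ± 0.09, limma adjusted p = 0.00144) and was lower again with Dox (-0.33 ± 0.09, adjusted p = 0.0256). Its Dox call was lost without any 1 of the PS arrays (0.0583 to 0.0626), without Dox replicate 1 (0.0641) or 3 (0.0815), and with only these 2 groups fitted (0.0662). MYH9, the non-muscle myosin that S100A4 binds, rose 1.26-fold with Dox (0.34 ± 0.07, adjusted p = 0.00729), a call lost with median centring (0.056). TRPV6, a calcium channel whose surface delivery needs S100A10-ANXA2, was 1.76-fold higher in PS medium (0.82 ± 0.12) and 1.51-fold lower with Dox (-0.59 ± 0.12, adjusted p = 0.00597). CTSB, a protease that binds S100A10 at the cell surface, rose in PS medium (log2 0.58 ± 0.10, adjusted p = 0.00129).

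Of 10 receptors and ligand enzymes, AGER, the receptor for several extracellular S100 proteins, rose in PS medium and PLAT and PLG fell. AGER read 175 to 195 on untreated arrays, 215 to 221 on PS arrays and 255 to 273 on Dox arrays (1.20-fold in PS medium, limma adjusted p = 0.0262). PLAT, the tissue plasminogen activator that ANXA2-S100A10 binds, read 317 to 495, 121 to 199 and 119 to 240 (2.40-fold lower in PS medium, -1.26 ± 0.25, adjusted p = 0.00326). With Dox over PS medium limma called 0 of the 10, with 1 rise before adjustment at p under 0.05. Of the 10, 5 were among the dimmest 25% of genes. In that comparison limma called 7.21% of all such dim genes and 17.3% of all genes. With 10 genes the count of 0 cannot show whether they were called less often than others.

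Other EF-hand proteins were led by CALB1, calbindin, a calcium buffer. It read 1080, 1281 and 932 on untreated arrays, 3320, 3350 and 3514 on PS arrays and 5315, 5216 and 7783 on Dox arrays. No 2 groups overlapped, in the same order as for ANXA2. CALB1 rose 3.03-fold in PS medium (1.60 ± 0.14, limma adjusted p = 1.39e-05) and 1.79-fold more with Dox (0.84 ± 0.14, adjusted p = 0.00222). PVALB, parvalbumin, another buffer, fell 2.76-fold in PS medium (-1.47 ± 0.14, adjusted p = 1.71e-05) with no call for Dox. RCN1, a calcium-binding protein of the endoplasmic reticulum, was 1.20-fold lower with Dox (-0.26 ± 0.06, adjusted p = 0.0135), a call lost without Dox replicate 1 (0.0546). Of the 5 measured S100-fused genes of the same chromosome 1 region, such as FLG, 0 passed in any comparison by limma. With Dox over PS medium 2 fell at an unadjusted p under 0.05. Of the 5, 4 were among the dimmest 25% of genes. Of all such dim genes limma called 12.9% in PS medium against untreated cells and 7.21% with Dox against PS medium. Against untreated cells it called 13.4% with Dox. The count of 0 among so few, mostly dim genes cannot show whether they were called less often than others.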

How the data were processed

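The deposited values are linear intensities of probe sets on 9 Affymetrix whole-transcript arrays. Per the submitters' processing notes the authors used Affymetrix Expression Console 1.1.1 with PLIER 2.0; how background was removed and arrays were matched is not stated there. Array medians were 200.4 to 216.5, and the number of arrays limits the precision. Of 33297 probe sets, 19460 had 1 symbol, 1754 several and 12083 none listed, and 19429 of the single symbols were updated by gene number (GRCh38.p14). The brightest probe set stood for each gene, leaving 18417. Values became log2(intensity + 16), which understates changes of dim genes. Log2 array medians spanned 0.10, just above the limit of 0.1, so arrays were quantile-normalized. One mean per group was fitted in limma 3.58.1 (R 4.3.3, trend, 6 residual degrees of freedom), with Benjamini-Hochberg adjustment and a threshold of 0.05. On simulated data for Dox against PS medium over 18417 genes, 95% of 100 genes changed 2-fold and 100% of 100 changed 4-fold were recovered, with 24 false calls. These false calls were a larger share of the calls than the threshold of 0.05. Noise was drawn independently for each array, and changes under 2-fold were not simulated, so the recovery of smaller changes is not known.

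The members and lists were chosen with earlier results of these data known. All members are accounted for; of the wider list, up to 6 genes with the largest change past the threshold per comparison are named, and AGER, PLG and FLG were added after their values were seen. Deviations of same-numbered arrays from their group means correlated over genes at 0.245, 0.428 and 0.246 (Dox and PS medium) and 0.246, 0.309 and 0.297 (Dox and untreated). For PS medium and untreated cells they gave 0.0857, 0.397 and 0.271. Replicates 2 and 3 there lay within the range of the other comparisons, and replicate 1 lay below it. Arrays of unlike number were not correlated, and the labels do not say that replicate numbers pair arrays. Whether replicate numbers pair the arrays was not tested in any comparison. The main fits were therefore unpaired, and the replicate block was an alternative. Alternatives covered the log offset, normalization, dim genes, probe sets, samples fitted, the replicate block, the variance trend and each array left out. Plots used matplotlib 3.10.9 (Python 3.11.15).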

Additional observations from a re-analysis of the deposited data

Results flagged for a closer look

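There were 13 probe sets related to the family but outside it, which no comparison above describes as members. Of these, 10 read higher on all PS arrays than on all untreated arrays, and that is why they are listed. The 2 that read lower were S100A7A (log2 -0.29) and a probe set that lists both SNU13 and ANXA2 (-0.24), and 1 overlapped. Among all 18417 genes, 7979 did not overlap between these groups, in either direction. ANXA2R-OT1, a transcript beside the annexin A2 receptor gene, differed by 2.43 on the log2 scale: 60.9, 78.0 and 63.8 on untreated arrays, 340, 462 and 501 on PS arrays and 126, 211 and 129 on Dox arrays, which lay 2.62-fold below the PS arrays without overlap. ANXA2R itself differed by 0.66 and ANXA2R-AS1 by 0.57. The ANXA2 pseudogenes differed by 0.83 (ANXA2P2), 0.72 (ANXA2P1) and 0.72 (ANXA2P3). S100A7L2 differed by 0.28, and the 3 probe sets that list both ANXA8L1 and ANXA8 by 0.25, 0.22 and 0.22.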

How the results depend on the processing

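Of 22 calls of single annexin or S100 genes over the 3 comparisons, 18 passed under all 18 alternatives and 4 (ANXA1 and S100A16 in PS medium, ANXA5 and S100A11 with Dox) were lost under some, with no change of sign among the 22. Leaving out each array in turn gave 5 to 8 calls among the 30 genes for PS medium against untreated cells (7 with all arrays), 5 to 8 for Dox against PS medium (7) and 8 to 10 for Dox against untreated cells (8). The range over all genes was 4165 to 5632, 2404 to 3074 and 4167 to 6028, and 8 to 9 of the 12 partner comparisons did not overlap. Among all 18417 single genes, 7979, 5697 and 8281 did not overlap in the 3 comparisons. The share among other gene pairs was not taken, and the 12 comparisons share arrays, so their count is a description. The replicate block raised the count in PS medium against untreated cells to 11 (8 higher), adding ANXA3, ANXA4, ANXA11 and S100Z. Whether the replicate numbers pair the arrays of any comparison was not tested, and the cause of the higher count was not tested. With the block the other counts were 8 for Dox against PS medium and 10 for Dox against untreated cells. Calls over all genes with the block are not given here, so these counts cannot be read as particular to the family. In these other comparisons the block changed the calls of ANXA1, ANXA4, ANXA11, AHNAK and MYH9. For MYH9 this was with Dox against untreated cells (0.16, limma adjusted p = 0.0273). It changed the call of no other gene named here that was refitted. The ANXA3 difference in PS medium, no call with any array left out, ranged from -0.0035 (without untreated replicate 1, a change of sign) to 0.36. The falls with Dox numbered 1 without a variance trend. No scaling moved the median of all genes by over 0.1 (-0.013 to 0.022). Of the dimmest 25% of genes, 4604 that include 13 of the 30, limma called 12.9% in PS medium against untreated cells and 7.21% with Dox against PS medium, beside 35.5% and 20.7% of the brighter ones.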
